A study of Homo sapiens with 24 samples.

Results

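T/C-28a2 is an immortalised human chondrocyte line. Its poly(A) RNA was sequenced in 24 libraries, 4 in each of 6 groups, and the 8 libraries described here are those labelled as WNK2 transfection without sorbitol (WNK2 trans Ctr, n = 4) and with sorbitol (WNK2 trans Sor, n = 4). They were chosen by these labels alone, with no measured value, and all expressed genes were compared. By the study's description, cells of both groups had received 2 µg of a plasmid expressing WNK2 and were then kept for 7 days in medium with 2% serum, which was isotonic (300 mOsm) for WNK2 trans Ctr and held 100 mM sorbitol (400 mOsm) for WNK2 trans Sor. By their label the controls of this comparison carried the transfection too, the labels name no group with an empty plasmid, and the share of cells that took up or kept the plasmid is not given in the sources used here. The groups set beside them were the untransfected parental cells in the same media (WT Ctr and WT Sor) and WNK2- Ctr and WNK2- Sor, which came from 1 CRISPR clone with a deletion of WNK2 exon 2. The comparison asks how chronic hyperosmotic medium changes gene expression in cells labelled as WNK2-transfected, and whether that change differs from the change in the WT and WNK2- cells.

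WNK kinases respond to osmotic stress and to intracellular chloride. Among their substrates are the kinases SPAK (gene STK39) and OSR1 (gene OXSR1). Cation-chloride cotransporters, which move ions and water across the membrane, are targets of SPAK and OSR1. A second arm of the response is transcriptional: NFAT5 induces enzymes and transporters that fill the cell with compatible osmolytes, among them AKR1B1, the aldose reductase that makes sorbitol inside the cell. Chondrocytes live in a hyperosmotic matrix built mainly of type II collagen, aggrecan and hyaluronan, and inflammatory cytokines and matrix proteases drive its loss in osteoarthritis (OA).

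Total counts per library were 15178553 to 23239491 for WNK2 trans Ctr and 14908600 to 19054291 for WNK2 trans Sor, within the 14153002 to 25664619 of the series. No replicate pair agreed within sampling noise: over the 12 pairs within both groups, the chi-square per degree of freedom ran from 6.33 to 67.9. WNK2 trans Sor replicate 1 and WNK2 trans Ctr replicate 3 lay farthest from their groups and are named where they matter. The study calls the replicates biological, but nothing in the labels ties them to separate cultures or days. The p-values below therefore measure only spread between libraries. That spread was estimated over all 24 libraries together, where the same chi-square ran from 2.3 to 67.9 within groups. A fit of the 8 libraries alone called fewer genes. Across the 24 libraries, 3132 of 19856 annotated protein-coding genes were listed at 0 in every library, including genes in broad use such as the ribosomal protein genes RPS4X and RPL15, and also SOX9, TIMP3, CCN2, ASNS and SLC5A3. No level is drawn from those entries.

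WNK2 itself (ENSG00000165238, GRCh38 chromosome 9, 93184916 to 93320572, GENCODE 29) was checked first. Normalized counts, which are reads brought to a common effective library size (the mean of the 24 libraries), were 296, 238, 183 and 291 in the 4 libraries labelled WNK2 trans Ctr and 3793, 2245, 2659 and 3433 in those labelled WNK2 trans Sor. The groups did not overlap, and WNK2 rose with sorbitol by 3.59 on the log2 scale (standard error 0.22, adjusted p = 7.92e-13, quasi-likelihood test of edgeR, p-values adjusted by Benjamini-Hochberg). In WT Ctr it stood at 3097, 1441, 2133 and 3409 and in WT Sor at 289.6, 319, 319 and 283, a fall with sorbitol of 3.06. WNK2- Ctr held 417, 404, 388 and 417 and WNK2- Sor 340.1, 419, 311 and 367, counted over the whole gene and not only over the deleted exon. There was thus less WNK2 in the libraries labelled WNK2 trans Ctr than in the untransfected WT Ctr libraries, which goes against their label, while the values of WNK2 trans Sor overlapped those of WT Ctr. All 4 libraries of WNK2 trans Ctr were also below every WNK2- library. The libraries labelled WT Sor, though not from WNK2- cells, overlapped the range of the WNK2- libraries, so WNK2 bears out neither label. Every WT response below rests on libraries called WT Ctr and WT Sor by their labels. Every difference from it rests on those called WNK2 trans Ctr and WNK2 trans Sor as well. Only the sorbitol part of these labels was checked by another gene, AKR1B1, as follows. Their transfection part was checked by WNK2 alone. Whether the transcript of the plasmid is counted as WNK2, and whether any library carries a wrong label, was not tested. The label groups compared thus differ in WNK2 as well as in sorbitol, and the part of each in the results below cannot be told apart. Groups are called by their labels throughout, "with sorbitol" and the like refer to those labels, and no direction below is read as an effect of more WNK2.

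AKR1B1 (ENSG00000085662, chromosome 7, 134442350 to 134459284) checked the other label. Its normalized counts were 5182, 4572, 6249.8 and 5550.1 in WNK2 trans Ctr and 32839, 25970.2, 23825 and 24392 in WNK2 trans Sor, a rise of 2.31 on the log2 scale (edgeR adjusted p = 2.69e-14, standard error 0.12). It also rose in WT cells (1.5) and in WNK2- cells (2.17), so it was higher under the sorbitol label in every pair of groups. Of 12 chondrocyte markers 7 were abundant enough to test, and SOX9 was listed at 0. The defining genes COL2A1 and ACAN were detected in all 8 libraries, and their values follow with the matrix genes.

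**Figure D1:**
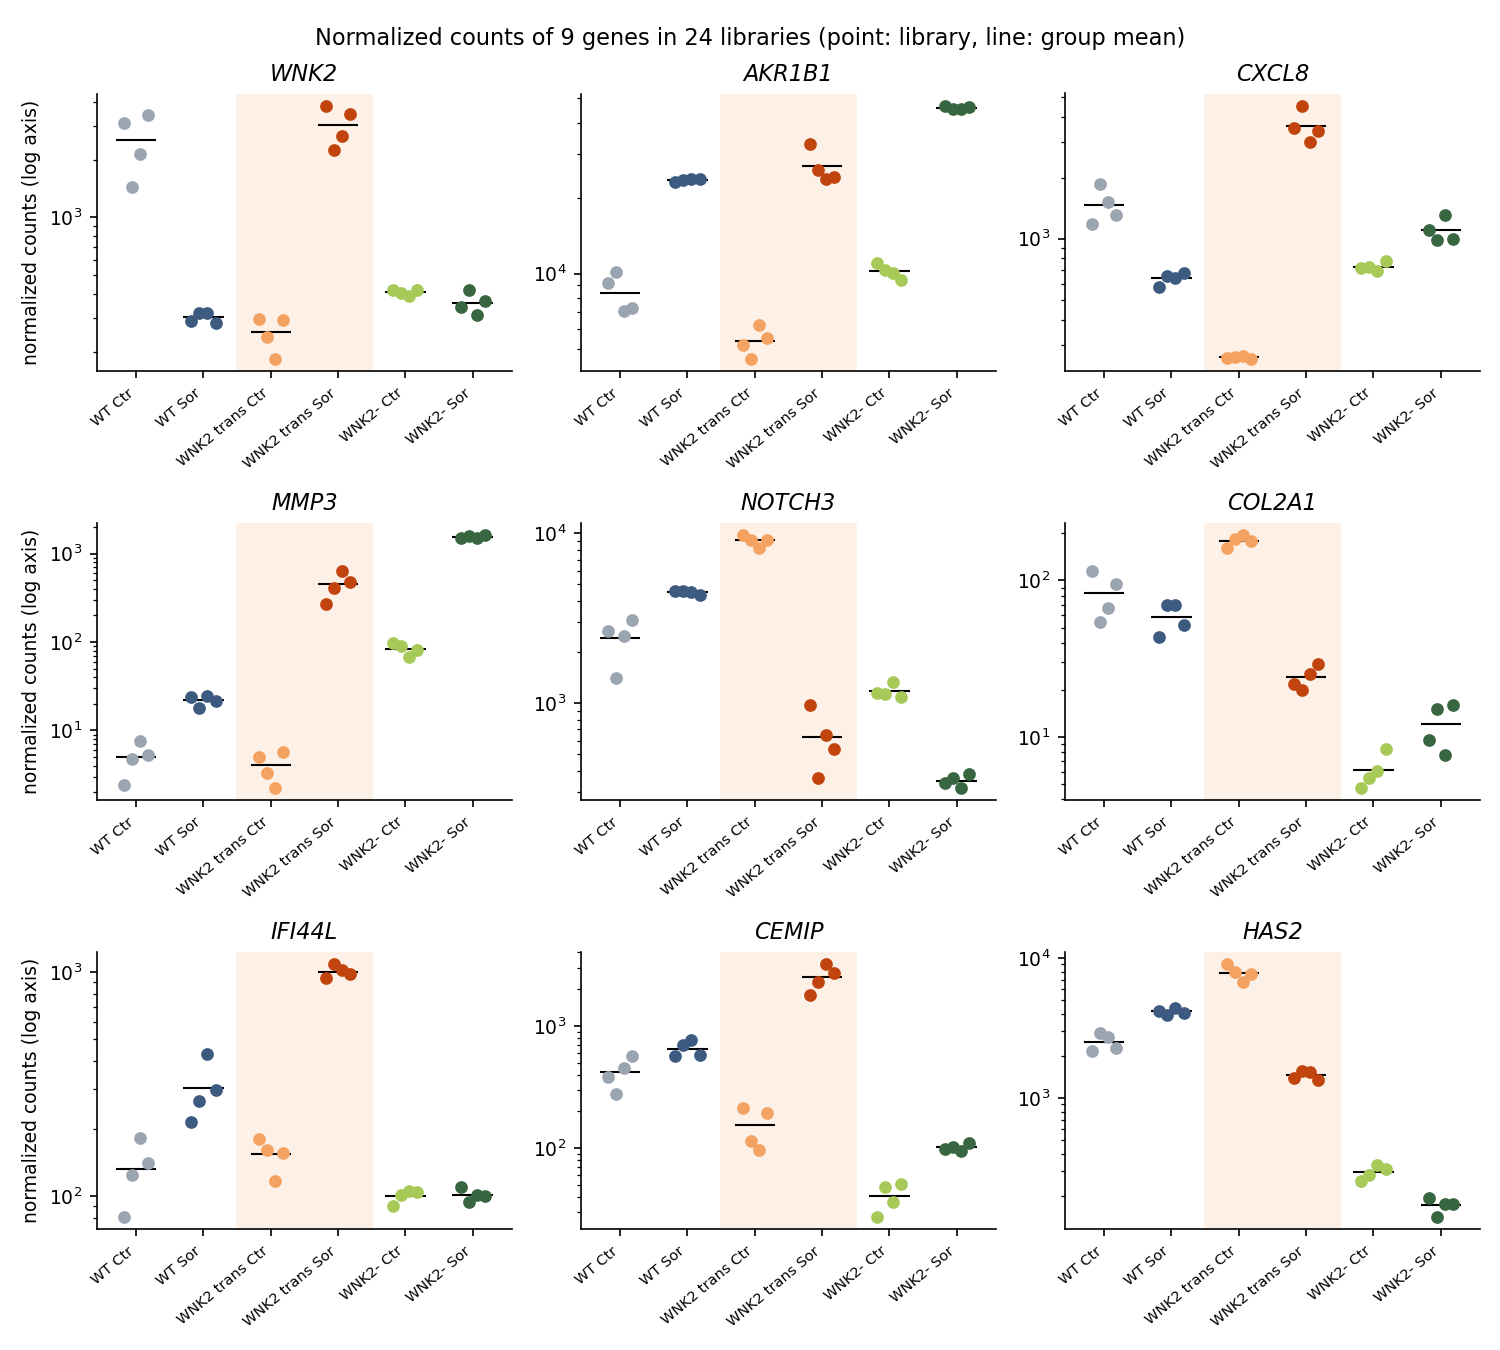
Normalized counts (log axis) of 9 genes in the 24 libraries; each point is a library, the line is the group mean and the shaded band holds the 8 libraries described here. WNK2 is low in the libraries labelled WNK2 trans Ctr and high in those labelled WNK2 trans Sor, AKR1B1 is higher with sorbitol in every pair of groups, and NOTCH3, COL2A1 and HAS2 are highest in WNK2 trans Ctr.

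The libraries labelled WNK2 trans Sor and WNK2 trans Ctr differed in many genes. Of 16600 genes tested, 4034 (24.3%) rose and 3938 (23.7%) fell, together 7972 genes or 48.0%, with an edgeR adjusted p under 0.05. These shares of 24.3% and 23.7% are the background for the counts of WNK2 trans in every gene list below, and a share near them is no result about a list. List counts from an alternative fit have another background. A fit of the 8 libraries alone called 2820 genes higher and 2812 lower of 14942. The correction for GC content and length called 4546 and 4614 of 16600. A list count that moves under these fits may move with all genes. Among the 7972 genes, 2026 rose and 1159 fell at least 2-fold. All 4 sorbitol libraries lay above all 4 controls for 2942 genes (17.7%) and below them for 2770 (16.7%). In the same fit, 1893 genes (11.4%) were higher and 2115 (12.7%) lower with sorbitol in WT cells. In WNK2- cells 1370 (8.25%) were higher and 1103 (6.64%) lower. Counts of list members in those cells are to be read against these shares. The median absolute log2 fold change over all genes was 0.45 in WNK2 trans, 0.29 in WT and 0.23 in WNK2-. Differences between the responses were themselves tested: relative to WT, the response was higher for 3002 genes (18.1%) and lower for 2895 (17.4%), and relative to WNK2- it was higher for 1899 (11.4%) and lower for 1544 (9.3%), the background for counts of such differences in a list. The count of 1544 was 2407 without WNK2 trans Sor replicate 1. In bulk RNA, fewer cells of a type and less RNA per cell cannot be told apart, here or in any result below.

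The largest rises included cytokines, enzymes and a transcription factor. By fold change among non-overlapping, well-expressed genes, the 12 largest rises were ABTB3 (4.72), WFDC10B (4.66), CSF3 (4.45), TMEM171 (4.45), SLC35F3 (4.35), CCBE1 (4.19), CEMIP (4.02), PRRX1 (3.86), CXCL8 (3.79), IL1B (3.76), MGLL (3.69) and LPXN (3.61) on the log2 scale, with edgeR adjusted p-values of at most 9.46e-13. CSF3, CXCL8 and IL1B encode secreted immune signals, CEMIP a protein that degrades hyaluronan, MGLL the lipase that splits monoacylglycerols, and PRRX1 a homeobox factor of limb mesenchyme. CCBE1 is a secreted matrix protein needed for lymphatic growth and LPXN a focal adhesion adaptor. PRRX1 read 172, 159.8, 129 and 179 normalized counts in WNK2 trans Ctr and 2067, 2519, 2365 and 2343 in WNK2 trans Sor, the most separated of the set relative to its spread. CEMIP read 215, 114, 96.7 and 194 without and 1785, 2289.6, 3208 and 2699 with sorbitol, so its lowest sorbitol library was far above its highest control. In WT cells, 7 of the 12 were higher with sorbitol and CXCL8 was lower. In WNK2- cells 11 of the 12 were higher, all but SLC35F3 (0.42, edgeR adjusted p = 0.102). The 12 were chosen by their size in WNK2 trans, so their larger values there are a description and no test.

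The largest falls included receptors and matrix proteins. They were SAMD11 (−4.08), NOTCH3 (−3.85), C7 (−3.62), THBD (−3.48), IGFBP3 (−3.45), SHISA8 (−3.38), EFNA2 (−3.07), SHISAL1 (−3.06), EMILIN3 (−3.05), GAS1 (−2.95), ICAM5 (−2.92) and VWA1 (−2.91), with edgeR adjusted p-values of at most 1.21e-06. NOTCH3 is a Notch receptor, C7 a complement component, THBD the endothelial anticoagulant receptor thrombomodulin, IGFBP3 a carrier of insulin-like growth factors, and VWA1 a matrix protein of cartilage. NOTCH3 (chromosome 19, 15159038 to 15200981) stood at 9764, 9166, 8237 and 9166 normalized counts in WNK2 trans Ctr and 975, 364, 646 and 537 in WNK2 trans Sor. THBD stood at 6359.9, 4569, 5394 and 5686 without and 564, 424, 481 and 504 with sorbitol. For both genes every control exceeded every sorbitol library several-fold. With sorbitol 8 of these 12 were lower in WNK2- cells, but in WT cells 4 of them (NOTCH3, C7, THBD and GAS1) were higher and only SHISAL1 was lower. These 12 too were chosen by their size in WNK2 trans, and their difference from the other cells is no test.

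**Figure D2:**
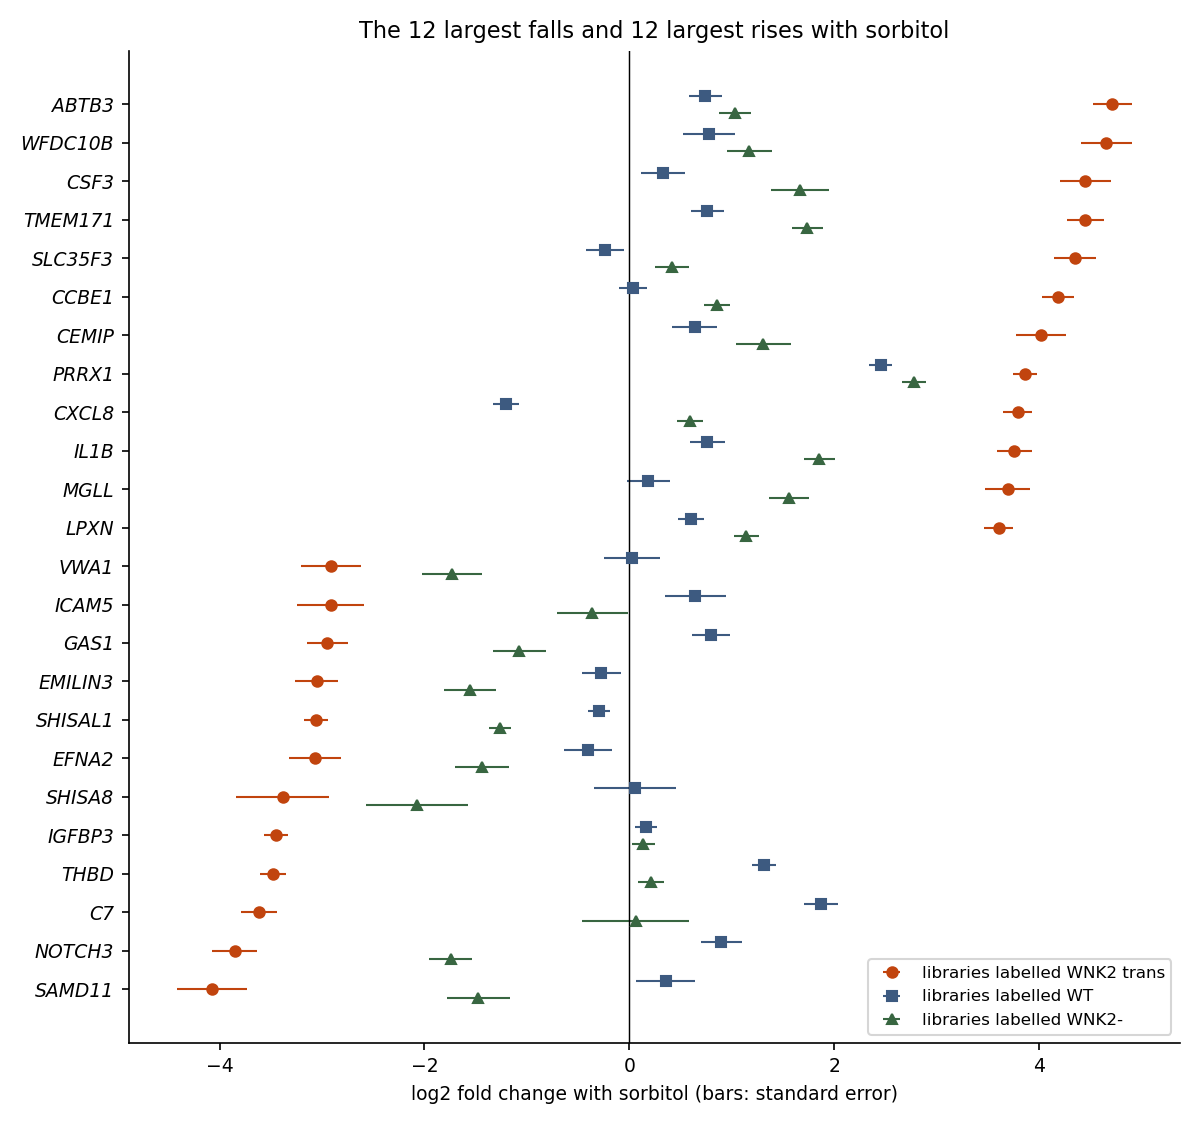
Log2 fold change with sorbitol (x axis) of the 12 largest rises and 12 largest falls in the libraries labelled WNK2 trans (circles), with the same genes in WT (squares) and WNK2- (triangles); bars are standard errors. The genes were chosen by their size in WNK2 trans. The WT and WNK2- values of the rises all lie below the WNK2 trans values, and several falls have WT values above 0.

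Levels in the control group differed from those in WT Ctr as well. Against WT Ctr, the libraries labelled WNK2 trans Ctr differed in 924 genes higher (5.57%) and 1158 lower (6.98%), and those labelled WNK2 trans Sor in 3280 higher (19.8%) and 3229 lower (19.5%). These comparisons share libraries with the sorbitol comparison and with each other, so levels are given side by side and no agreement between them is counted. CXCL8 (chromosome 4, 73740506 to 73743716) had 1184, 1869.9, 1523 and 1313 normalized counts in WT Ctr, 581, 657, 644 and 680.0 in WT Sor, 257, 262, 265 and 256 in WNK2 trans Ctr and 3527, 4499.8, 2999 and 3404 in WNK2 trans Sor. The WNK2 trans Ctr libraries were thus the lowest of the 4 groups and the WNK2 trans Sor libraries the highest. NOTCH3 had the opposite order, with 2666, 1397, 2485 and 3094 in WT Ctr and 4569, 4594, 4506 and 4309 in WT Sor between the high WNK2 trans Ctr and the low WNK2 trans Sor libraries.

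Cartilage matrix genes fell more often than they rose. Of 22 tested members 16 fell (72.7%) and 5 rose (22.7%, near the background; 3 without WNK2 trans Sor replicate 3), with a median log2 fold change of −1.58 beside 0.0064 over all genes tested. COL2A1, the type II collagen chain (chromosome 12, 47972965 to 48004554), dropped from 160.4, 184, 195 and 178 normalized counts to 21.7, 20.1, 25.4 and 29.4 (−2.88, edgeR adjusted p = 3.65e-10). ACAN, the core protein of aggrecan, dropped from 223, 130.3, 127 and 142 to 32.5, 23.1, 19.0 and 45.0 (−2.36, adjusted p = 4.38e-06), and its control replicate 1 was the highest by far. COMP, which binds collagen fibrils, went from 53.5, 52.4, 66.3 and 52.9 to 16.8, 0, 6.34 and 13.8, so the sorbitol values rest on few reads. COL9A3 (−3.41) and CILP2 (−2.31) also fell. The 5 members that rose, named after their values were seen, were HAPLN1, the link protein that ties aggrecan to hyaluronan (1.34), MATN1 (1.48) and MATN4 (1.47), which are matrilins, CHI3L1 (0.85) and THBS1 (0.92). Without WNK2 trans Sor replicate 3 the rises in the list were 3. In WT cells 4 members rose, with a median of 0.21, and in WNK2- cells 3 rose and 6 fell, with a median of −0.31. The response differed from WT downwards for 17 members.

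Fibrillar and hypertrophic collagens and the enzymes that crosslink them showed a like pattern, with 19 of 30 falling, 3 rising and a median of −0.64. COL1A1, the main chain of type I collagen, went from 89893, 85259, 98969.8 and 76870.4 to 27746, 15364, 20152 and 21821 normalized counts (−2.04). COL3A1 (−2.19), COL14A1 (−2.17) and the matrix protein POSTN (−2.25) fell as well, the collagens and POSTN with no overlap between groups. In WT cells 13 of the 30 rose and 2 fell, whereas in WNK2- cells 14 fell and 1 rose. The response differed from that in WT cells downwards for 19 members, and against WT Ctr 14 members were higher in WNK2 trans Ctr. After correction for GC content and length the rises in this list were 7.

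Hyaluronan and heparan sulfate genes fell more often than they rose, at 16 and 7 of 29 with a median of −0.63. The falls were 55.2% against 23.7% of all genes tested, and the rises, 24.1%, were at the background of 24.3%. HAS2, the main hyaluronan synthase of mesenchymal cells, fell from 9044, 7957, 6689 and 7732 normalized counts to 1393, 1554, 1525 and 1349.7 (−2.43, edgeR adjusted p = 6.07e-15), whereas CEMIP, which degrades hyaluronan, rose. CD44, the hyaluronan receptor, named after its value was seen, rose by 1.64. SULF1 (−1.81) and SULF2 (−1.90), which trim sulfate groups from heparan sulfate, both fell. In WT cells HAS2 (0.72) and SULF1 (1.63) rose.

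Matrix proteases and their inhibitors fell more often than they rose. Of 27 tested members 17 fell (63.0%) and 7 rose (25.9%, near the 24.3% of all genes tested), with a median of −0.49. MMP3, the stromelysin that cleaves aggrecan and activates other proteases (chromosome 11, 102835801 to 102843803), had 4.97, 3.28, 2.25 and 5.75 normalized counts in WNK2 trans Ctr, from 2 to 5 raw reads, and 271, 409.5, 631 and 483 in WNK2 trans Sor. Its log2 fold change, 6.78 (edgeR adjusted p = 7.64e-16, standard error 0.28), therefore rests on a few control reads. ADAMTS6 (3.55), the gelatinase MMP9 (3.54) and the collagenase MMP13 (0.91) rose too. MMP13 read 146, 127, 124 and 103 without and 187, 248, 243 and 259 with sorbitol, a small but complete separation. The aggrecanase ADAMTS5 did not pass the test (−0.16, edgeR adjusted p = 0.587), and ran from −0.36 to −0.035 without 1 library in turn. ADAMTS2, which processes procollagen, fell (−2.70). MMP3 also rose in WT (2.09) and WNK2- cells (4.20), while MMP13 fell in WT cells (−1.01).

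Inflammatory cytokines, chemokines and NF-kB targets rose more often than they fell. Of 36 tested members 21 rose (58.3%, against 24.3% of all genes tested), 3 fell and 12 were not called, with a median log2 fold change of 1.03. The falls were 5 without WNK2 trans Sor replicate 1. CXCL8, the neutrophil chemoattractant, stood at 257, 262, 265 and 256 normalized counts in the control libraries and at 3527, 4499.8, 2999 and 3404 with sorbitol (3.79, standard error 0.14, edgeR adjusted p = 9.65e-17). IL1B, the cytokine that triggers cartilage breakdown, went from 78.3, 54.9, 101 and 97.7 to 1349, 1105, 925 and 1085 (3.76). CSF3, a granulocyte growth factor, went from 33.6, 46.7, 49.5 and 41.4 to 1369, 602, 852 and 966. In all 3 genes the groups lay far apart. IL6 (2.13) and CXCL1 (2.99) rose likewise. The NF-kB inhibitor NFKBIA had 0.18 (edgeR adjusted p = 0.264), and ran from 0.02 to 0.33 without 1 library in turn. NFKBIA passed without WNK2 trans Ctr replicate 3 (0.33, adjusted p = 0.0408) and after correction for GC content and length (0.26, 0.00279). The adhesion receptor VCAM1, named after its value was seen, fell by 2.00.

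The cytokine response of WT cells was mixed, with 7 members rising, 7 falling and a median of −0.05, and in WNK2- cells 12 rose and 4 fell, with a median of 0.33. CXCL8 and CXCL1 fell in WT cells (−1.20 and −0.78). The interaction with the WT response was higher for 20 members and lower for 4, and that with the WNK2- response higher for 17 and lower for 3. Against WT Ctr, 18 members were lower and 4 higher in WNK2 trans Ctr, and 17 were higher and 6 lower in WNK2 trans Sor.

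Interferon-induced genes also rose. Interferon signals to a shared promoter element, the interferon-stimulated response element (ISRE), and switches on antiviral proteins. Of 28 tested members 21 rose and 2 fell, with a median of 1.04. The falls were 1 without WNK2 trans Ctr replicate 3 or WNK2 trans Sor replicate 2, 3 or 4, and 0 in a fit of the 8 libraries alone. IFI44L read 180.3, 159.8, 117 and 156 normalized counts in WNK2 trans Ctr and 943, 1084, 1016 and 976 in WNK2 trans Sor (2.71, edgeR adjusted p = 1.95e-11). IFIH1, the sensor of double-stranded RNA also called MDA5, read 173, 193, 172 and 147 without and 742, 843, 803 and 937 with sorbitol (2.28). MX1, an antiviral GTPase, read 33.6, 45.9, 47.2 and 36.8 without and 302, 239.9, 273 and 212 with sorbitol (2.64). The groups were apart in each gene, with little spread among the sorbitol libraries. HERC6 (2.54) and, named after its value was seen, RSAD2 (4.56) rose too, and BST2 (−0.75) and IFITM2 (−1.01), also named afterwards, were the members that fell. In WT cells 5 members rose and 4 fell, with IFI44L among the rises (1.19), beside 11.4% and 12.7% of all genes, and in WNK2- cells 1 rose and 3 fell, beside 8.25% and 6.64%. The difference from WT was upwards for 20 members and from WNK2- for 18. IFIT1, IFIT2, IFIT3 and IRF1 were listed at 0 in all libraries.

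The ISRE was looked for because these members were listed as interferon targets. Promoters were RefSeq sequences on GRCh38.p14 from 250 bases before to 50 after the start site, which 11446 of the 16600 genes tested had (69.0%). The ISRE core GAAANNGAA, searched on both strands, occurred in 16 of 21 promoters of the interferon list (76.2%), against 6.33% of all tested genes, 6.96% of the genes that rose and 8.29% of the 27305 promoters in the table. The 3 promoters shown are those of IFI44L (chr1:78620198-78620497, plus strand, matches beginning 164 and 73 bases before the start), IFIH1 (chr2:162318635-162318934, minus strand) and MX1 (chr21:41420308-41420607, plus strand). They carry the element at different places, upstream in IFI44L and IFIH1 and just after the start in MX1. Capitals mark the bases covered by GAAANNGAA or its reverse complement, merged where matches overlap.
IFI44L: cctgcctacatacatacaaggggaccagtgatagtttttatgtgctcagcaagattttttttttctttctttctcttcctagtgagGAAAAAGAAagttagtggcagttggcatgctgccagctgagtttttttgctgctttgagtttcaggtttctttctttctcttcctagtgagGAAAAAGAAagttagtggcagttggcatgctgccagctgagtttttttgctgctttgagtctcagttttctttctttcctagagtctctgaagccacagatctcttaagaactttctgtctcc
IFIH1: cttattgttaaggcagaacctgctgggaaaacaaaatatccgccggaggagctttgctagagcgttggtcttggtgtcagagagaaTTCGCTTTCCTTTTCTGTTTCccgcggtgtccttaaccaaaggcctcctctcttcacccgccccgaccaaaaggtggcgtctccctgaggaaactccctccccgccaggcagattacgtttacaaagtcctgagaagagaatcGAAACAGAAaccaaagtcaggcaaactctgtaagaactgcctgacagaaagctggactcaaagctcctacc
MX1: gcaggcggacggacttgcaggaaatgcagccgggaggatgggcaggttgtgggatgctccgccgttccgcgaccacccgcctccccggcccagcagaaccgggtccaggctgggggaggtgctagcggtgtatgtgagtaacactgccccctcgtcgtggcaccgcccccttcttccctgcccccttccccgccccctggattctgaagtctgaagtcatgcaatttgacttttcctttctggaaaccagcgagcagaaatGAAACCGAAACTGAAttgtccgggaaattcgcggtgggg

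Among bone morphogenetic protein (BMP) and TGF-beta signalling genes 14 of 35 fell and 9 rose (25.7%, near the background of 24.3%), with a median of −0.29. The median was −0.15 without WNK2 trans Ctr replicate 1, −0.14 without WNK2 trans Sor replicate 1 and −0.11 after correction for GC content and length. NOG (4.47), GREM1 (2.80) and, named after its value was seen, FST (2.17), which bind and block ligands of the family, rose. INHBA, the activin A subunit, rose (2.61), as did the ligand BMP2 (1.29), while the BMP antagonist CHRD fell (−3.04). GREM1 read 1134, 947, 865 and 1267 normalized counts in WNK2 trans Ctr and 5842, 7055, 8983 and 7471 in WNK2 trans Sor. ID1 (−2.47) and ID3 (−2.39), direct targets of BMP signalling that were named after their values were seen, fell. GREM1 and INHBA fell in WT cells (−0.53 and −0.51).

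WNT and Notch components fell more often than they rose. In the WNT list 14 of 38 fell (36.8%) and 9 rose (23.7%, near the 24.3% of all genes tested), with a median of −0.21 that was −0.32 without WNK2 trans Sor replicate 1 or 2. The ligands WNT7B (2.67) and WNT5B (2.45) rose, and WNT6 (−3.96), WNT5A (−0.35) and the receptor FZD9 (−1.57) fell, FZD9 with −2.405 without WNK2 trans Sor replicate 1. In the Notch list 14 of 28 fell and 4 rose, with a median of −0.68. The falls took in the receptor NOTCH3, the ligand JAG1 (−0.98), and the target genes HEY1 (−2.45) and NRARP (−2.40). HEY1 read 463, 557, 506 and 436 normalized counts in WNK2 trans Ctr and 123, 90.3, 75.0 and 71.6 in WNK2 trans Sor, with no overlap. MAML3, a co-activator of Notch, rose (2.50), as did NOTCH2 (0.54), which was named after its value was seen. In WT cells 4 Notch members rose and 1 fell, and the response in WNK2 trans was lower than that of WT for 16 members. The 4 rises in the Notch list came to 2 without WNK2 trans Ctr replicate 3 or WNK2 trans Sor replicate 3 and in a fit of the 8 libraries alone.

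In the list of FGF and EGF ligands, receptors and their feedback genes, 15 of 30 rose and 12 fell, with a median of 0.28 that was 0.49 without WNK2 trans Sor replicate 4. FGF5 (3.27) and NRG1 (2.54), both growth factor ligands, rose. FGFR3, the receptor that restrains chondrocyte growth, fell (−2.48), and so did SPRY1, an inhibitor of the pathway induced by it, from 2174, 2061, 2125 and 2199 to 395, 329, 338 and 338 normalized counts (−2.61, edgeR adjusted p = 3.6e-14). SPRY1 rose in WT cells (0.99). Targets of SRF and YAP/TEAD and contractile genes rose more often than they fell, at 15 and 6 of 31 with a median of 0.27, or 0.44 without WNK2 trans Ctr replicate 3 and WNK2 trans Sor replicate 1 together. F3, the coagulation initiator tissue factor, (3.33), ANKRD1 (3.06), CALD1 (2.67) and VGLL3 (1.57) led them. The TEAD motif GGAATG was looked for because the list was written to hold TEAD targets, so its share is a description. It occurred in 9 of 25 promoters of the list (36.0%) and in 10.9% of those of all tested genes. Among integrin subunits 6 of 15 rose and 4 fell, with ITGA10, a collagen II receptor of chondrocytes, and ITGA2 up (3.21 and 1.36) and ITGA11 down (−1.96). AP-1 and immediate early genes gave 6 rises (27.3%, near the 24.3% of all genes tested) and 9 falls (40.9%) of 22, and 10 rises after correction for GC content and length, with FOSL1 up (1.71) and KLF9 down (−1.80).

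Members of the WNK pathway rose in part. Of 22 tested members 9 rose, WNK2 among them, and 4 fell, with a median of 0.28. STK39, the SPAK kinase, read 621, 687, 551 and 627 normalized counts in WNK2 trans Ctr and 1516, 2237, 1855 and 1951 in WNK2 trans Sor (1.60, standard error 0.10, edgeR adjusted p = 2.04e-12), so that the groups were well apart. OXSR1 rose less (0.33, adjusted p = 0.0036), as did WNK4 (0.68) and the kinase SGK1 (0.71). SLC12A2, the cotransporter NKCC1, read 938, 735, 464 and 820.4 without and 860.4, 1077, 1195 and 959 with sorbitol, with overlapping groups (0.47, edgeR adjusted p = 0.0187). SLC12A2 lost its call in a fit of the 8 libraries alone (0.47, adjusted p = 0.0792). It also lost it without WNK2 trans Ctr replicate 3 (0.31, 0.0757) or WNK2 trans Sor replicate 3 (0.38, 0.0805). WNK1, named after its value was seen, had 0.087 (edgeR adjusted p = 0.597). STK39 had −0.21 in WT (adjusted p = 0.122) and 0.22 in WNK2- cells (0.147), and its response was larger in WNK2 trans than in WT by 1.82 (edgeR adjusted p = 3.35e-10).

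The tonicity list was led by AKR1B1 but did not rise as a whole. Of 23 tested members 8 rose and 7 fell, with a median of 0.10, and after correction for GC content and length 15 rose and 5 fell, with a median of 0.30. Without 1 library in turn the median ran from 0.02 without WNK2 trans Ctr replicate 1 or WNK2 trans Sor replicate 1 to 0.21 without WNK2 trans Ctr replicate 3. HSPA4L, an osmotically induced chaperone, rose (0.92). NFAT5 read 4179, 3590.3, 1437 and 3268 without and 2901, 5555, 5553 and 4961 with sorbitol, with a log2 fold change of 0.61 that did not pass the test (edgeR adjusted p = 0.0611) and WNK2 trans Ctr replicate 3 far below the other controls. NFAT5 did pass under 8 of the alternatives, among them DESeq2 (adjusted p = 0.0392), the GC and length correction (0.0294) and leaving out WNK2 trans Sor replicate 1 (0.0177). Its log2 fold change was smaller, 0.37, both with that correction and without WNK2 trans Ctr replicate 3 (adjusted p = 0.207). The taurine transporter SLC6A6 (−0.55), the glycine transporter SLC6A9 (−0.80) and the aquaglyceroporin AQP3 (−1.84) fell. SLC5A3, the myo-inositol transporter, was listed at 0. Among volume-regulated channels and osmosensors 8 of 24 rose and 7 fell, shares near the 24.3% and 23.7% of all genes tested. The potassium channel KCNMA1 rose from 694, 526, 433 and 541 to 2665, 4296, 3760.1 and 4363 normalized counts (2.78), and TRPV4, the calcium channel by which chondrocytes sense osmolarity, fell from 301, 288, 280.0 and 329.8 to 156, 78.3, 126 and 98.2 (−1.39). LRRC8A, the obligatory subunit of the volume-regulated anion channel, had −0.12 (edgeR adjusted p = 0.167). The 8 rises in this list came to 3 in a fit of the 8 libraries alone, and to 3 to 5 without WNK2 trans Ctr replicate 3 or 4 or WNK2 trans Sor replicate 2, 3 or 4.

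Transcripts of sterol synthesis genes rose more often than they fell. Of 25 tested cholesterol synthesis genes and SREBP2 targets 14 rose (56.0%) and 2 fell, with a median of 0.44, and 5 fell without WNK2 trans Sor replicate 1. MSMO1 read 1650.3, 1534, 1537 and 1380.1 normalized counts in WNK2 trans Ctr and 2651, 3513, 3178 and 3098 in WNK2 trans Sor (1.03, edgeR adjusted p = 3.12e-08). HSD17B7 (1.42), STARD4 (0.94), LSS (0.85) and HMGCS1 (0.76), enzymes of the pathway except for the sterol carrier STARD4, rose as well. In WT cells 6 members fell and 1 rose, and in WNK2- cells 5 fell. The response was larger in WNK2 trans than in WT for 15 members and than in WNK2- for 13. Against WT Ctr, 13 members were lower in WNK2 trans Ctr. In the fatty acid list 8 of 17 rose and 4 fell, with ME1 (1.97), LPIN1 (1.16) and SCD (0.53) up and AGPAT2 down (−0.81), AGPAT2 with −0.087 and an edgeR adjusted p of 0.236 after correction for GC content and length. The 4 falls in this list came to 2 without WNK2 trans Ctr replicate 1 or 2 or WNK2 trans Sor replicate 4 and in a fit of the 8 libraries alone.

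Mitosis genes were more often higher than lower in WNK2 trans and more often lower in the other cells. Of 32 tested members 17 rose (53.1%), 2 fell and 13 were not called in WNK2 trans, with a median of 0.29, while in WT cells 31 fell, with a median of −0.69, and in WNK2- cells 22 fell, with a median of −0.40. The difference from WT was upwards for 30 members and from WNK2- for 25. BUB1B, a spindle checkpoint kinase, read 1339, 1494, 1179.6 and 1339.8 normalized counts in WNK2 trans Ctr and 1859, 2262, 2331 and 1921 in WNK2 trans Sor (0.64, edgeR adjusted p = 2.05e-06). ANLN (0.70), FOXM1 (0.68) and TTK (0.63) rose too, and CDK1, the kinase that starts mitosis, fell (−0.45). Against WT Ctr, all 32 members were lower in WNK2 trans Ctr and 19 in WNK2 trans Sor. In a fit of the 8 libraries alone the rises were 11. Among cell cycle inhibitors and p53 targets 7 of 23 rose and 6 fell, shares near the 24.3% and 23.7% of all genes tested. CCND1, the cyclin of G1 phase, rose from 1056, 876, 725 and 1068 to 4301, 4931, 5691 and 5642 (2.47), CDKN1C fell (−1.82), and CDKN1A had 0.37 (edgeR adjusted p = 0.0603). CDKN1A passed under 5 of the alternatives, among them DESeq2 (adjusted p = 0.0444), the GC and length correction (5.41e-06) and leaving out WNK2 trans Sor replicate 2 (0.00683).

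DNA replication genes fell more often than they rose. Of 33 tested members 15 fell (45.5%) and 7 rose (21.2%, near the 24.3% of all genes tested), with a median of −0.18, beside 20 falls in WT and 13 in WNK2- cells. The helicase subunits MCM2 (−0.54), MCM5 (−0.65) and MCM6 (−0.82) fell. MCM6 read 4386, 5101, 5024 and 4550.4 normalized counts in WNK2 trans Ctr and 2278, 3164, 2709.6 and 2628 in WNK2 trans Sor. RRM2, a ribonucleotide reductase subunit, rose from 3874, 3989, 4002 and 4033 to 6002, 7089.5, 6760.4 and 6339.8 (0.72), and the phosphatase CDC25A from 686, 752, 719.7 and 795 to 1271, 1048, 1261 and 1176 (0.69). In each of these genes the groups did not overlap. The falls were 9 without WNK2 trans Ctr replicate 3, and 8 in a fit of the 8 libraries alone.

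Promoters of the replication list often held the E2F motif TTTNGCGC on either strand, in 14 of 29 (48.3%) against 2.79% of all tested genes and 1.83% of all promoters in the table. It stood in 7 of 11 promoters of members that fell (63.6%) and in 2 of 7 of those that rose (28.6%). Shown are MCM2 (chr3:127598161-127598460, plus strand) and MCM6 (chr2:135876394-135876693, minus strand), which fell, beside CDC25A (chr3:48188368-48188667, minus strand), which rose with the same motif. Capitals mark TTTNGCGC or its reverse complement, merged where both strands overlap. A match is a description of these letters and not of binding.
MCM2: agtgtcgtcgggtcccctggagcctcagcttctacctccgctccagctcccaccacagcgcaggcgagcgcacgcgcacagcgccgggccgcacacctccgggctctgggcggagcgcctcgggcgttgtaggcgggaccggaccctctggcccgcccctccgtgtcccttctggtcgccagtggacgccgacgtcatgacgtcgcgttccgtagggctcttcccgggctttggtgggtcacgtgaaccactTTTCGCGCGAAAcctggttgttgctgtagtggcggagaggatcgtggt
MCM6: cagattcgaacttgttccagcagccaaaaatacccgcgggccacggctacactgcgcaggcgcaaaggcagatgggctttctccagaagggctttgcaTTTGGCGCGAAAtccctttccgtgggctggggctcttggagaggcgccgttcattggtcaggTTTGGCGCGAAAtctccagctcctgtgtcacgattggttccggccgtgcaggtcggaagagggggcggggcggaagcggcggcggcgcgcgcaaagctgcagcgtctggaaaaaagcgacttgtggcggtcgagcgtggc
CDC25A: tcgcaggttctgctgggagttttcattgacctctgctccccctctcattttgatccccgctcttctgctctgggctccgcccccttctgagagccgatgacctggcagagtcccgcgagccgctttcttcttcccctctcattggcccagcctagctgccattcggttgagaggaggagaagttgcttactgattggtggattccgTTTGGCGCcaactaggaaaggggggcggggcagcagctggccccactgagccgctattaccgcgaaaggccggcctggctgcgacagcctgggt

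Ribosomal protein genes fell most uniformly. Of 70 tested members 61 fell, with a median of −0.80, and DESeq2 called 1 higher. RPL41 read 9307, 10034, 16663 and 13625 normalized counts in WNK2 trans Ctr and 9576, 2907, 3695 and 2815 in WNK2 trans Sor, and RPS25 4242, 4527, 7866 and 6413 without and 3866, 1678, 1774 and 1457 with sorbitol. In both genes WNK2 trans Sor replicate 1 stood far above its group, in RPL41 within the range of the controls, and WNK2 trans Ctr replicate 3 was the highest control. Without 1 library in turn, 52 to 63 members fell. In WT cells 55 fell and in WNK2- cells 11. Nuclear genes of the respiratory chain and ATP synthase gave 22 falls of 59, with a median of −0.25, among them COX6B1 (−0.91), UQCRH (−0.91) and NDUFB10 (−0.88). COX6B1 lost its call without WNK2 trans Ctr replicate 3 or WNK2 trans Sor replicate 2 or 4 (adjusted p of 0.0517 to 0.0634) and was at −1.41 without WNK2 trans Sor replicate 1. The 22 falls came to 10, with a median of −0.14, without WNK2 trans Ctr replicate 3, 12 without WNK2 trans Sor replicate 4 and 13 in a fit of the 8 libraries alone. Of 13 mitochondrially encoded genes 6 fell, including MT-CO3 (−0.79) and MT-CYB (−0.79). MT-ATP8, whose sequence overlaps MT-ATP6, was called higher (0.59, edgeR adjusted p = 0.047), a call lost under 10 of the alternatives, with −0.009 after correction for GC content and length.

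The other stress lists did not rise as groups either. In the list of ATF4 targets and the unfolded protein response 14 of 29 fell and 2 rose, with a median of −0.31. DDIT4, an inhibitor of mTORC1, fell from 1445, 1467, 1877 and 1871 to 738, 306, 377 and 415 normalized counts (−1.86), PHGDH (−0.88) and PDIA4 (−0.65) fell, and the chaperone HSPA5 had 0.032 (edgeR adjusted p = 0.738). Heat shock proteins gave 4 falls and 2 rises of 17, the falls near the 23.7% of all genes tested, with HSPB1 (−1.51) and HSPA2 (−0.97) down and HSPB8 (0.81) up, and without WNK2 trans Ctr replicate 3 the falls were 2 and the rises 4. NRF2 targets gave 10 falls (43.5%) and 5 rises (21.7%, near the background) of 23, with NQO1 (−0.78) and ABCC3 (−1.26) down. The 10 falls came to 6 without WNK2 trans Ctr replicate 3 or in a fit of the 8 libraries alone. In the glycolysis and hypoxia list 12 of 32 fell and 6 rose. The hormone ADM (3.02) and the angiogenic factor VEGFA (1.38) rose, and the lipase inhibitor ANGPTL4 (−1.22) fell. After correction for GC content and length the rises in this list were 11.

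Transcription factors of chondrocytes and hypertrophy gave 6 rises and 6 falls of 20 (30.0% each), not far from the 24.3% and 23.7% of all genes tested. RUNX2, which drives hypertrophy, rose (0.71), and BARX1 (−2.40) and TWIST1 (−0.90) fell. The 6 rises came to 3 without WNK2 trans Ctr replicate 3 or WNK2 trans Sor replicate 4 and to 2 in a fit of the 8 libraries alone. Among clock genes 9 of 20 fell (45.0%) and 5 rose (25.0%, near the background of 24.3%). NPAS2, a partner of BMAL1, rose from 143, 137, 155 and 113 to 922, 1169, 1061 and 1319 normalized counts (3.03), and BMAL1 rose (0.75), while PER1 (−1.06) and DBP (−1.59), targets of that pair, fell. NR1D1 had 0.023 (edgeR adjusted p = 0.9), and 0.33 (0.00821) after correction for GC content and length. In a fit of the 8 libraries alone the falls were 4.

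For the gene sets that the study took from other published OA tissue data, 37 of 80 tested members of the set higher in OA rose and 21 fell, with a median of 0.19, against 24.3% and 23.7% of all genes tested, so that the falls are near the background. In the set lower in OA, 24 of 52 fell and 7 rose, with a median of −0.26, and 13 rose after correction for GC content and length. The first set held AMTN (3.08), DNER (2.71) and CCND1 among its rises and IGFBP3 among its falls. In the second, GSTO2 rose (2.08) and RCOR2 (−1.86), SCARF2 (−1.63) and ITGB4 (−1.53) fell.

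**Figure D3:**
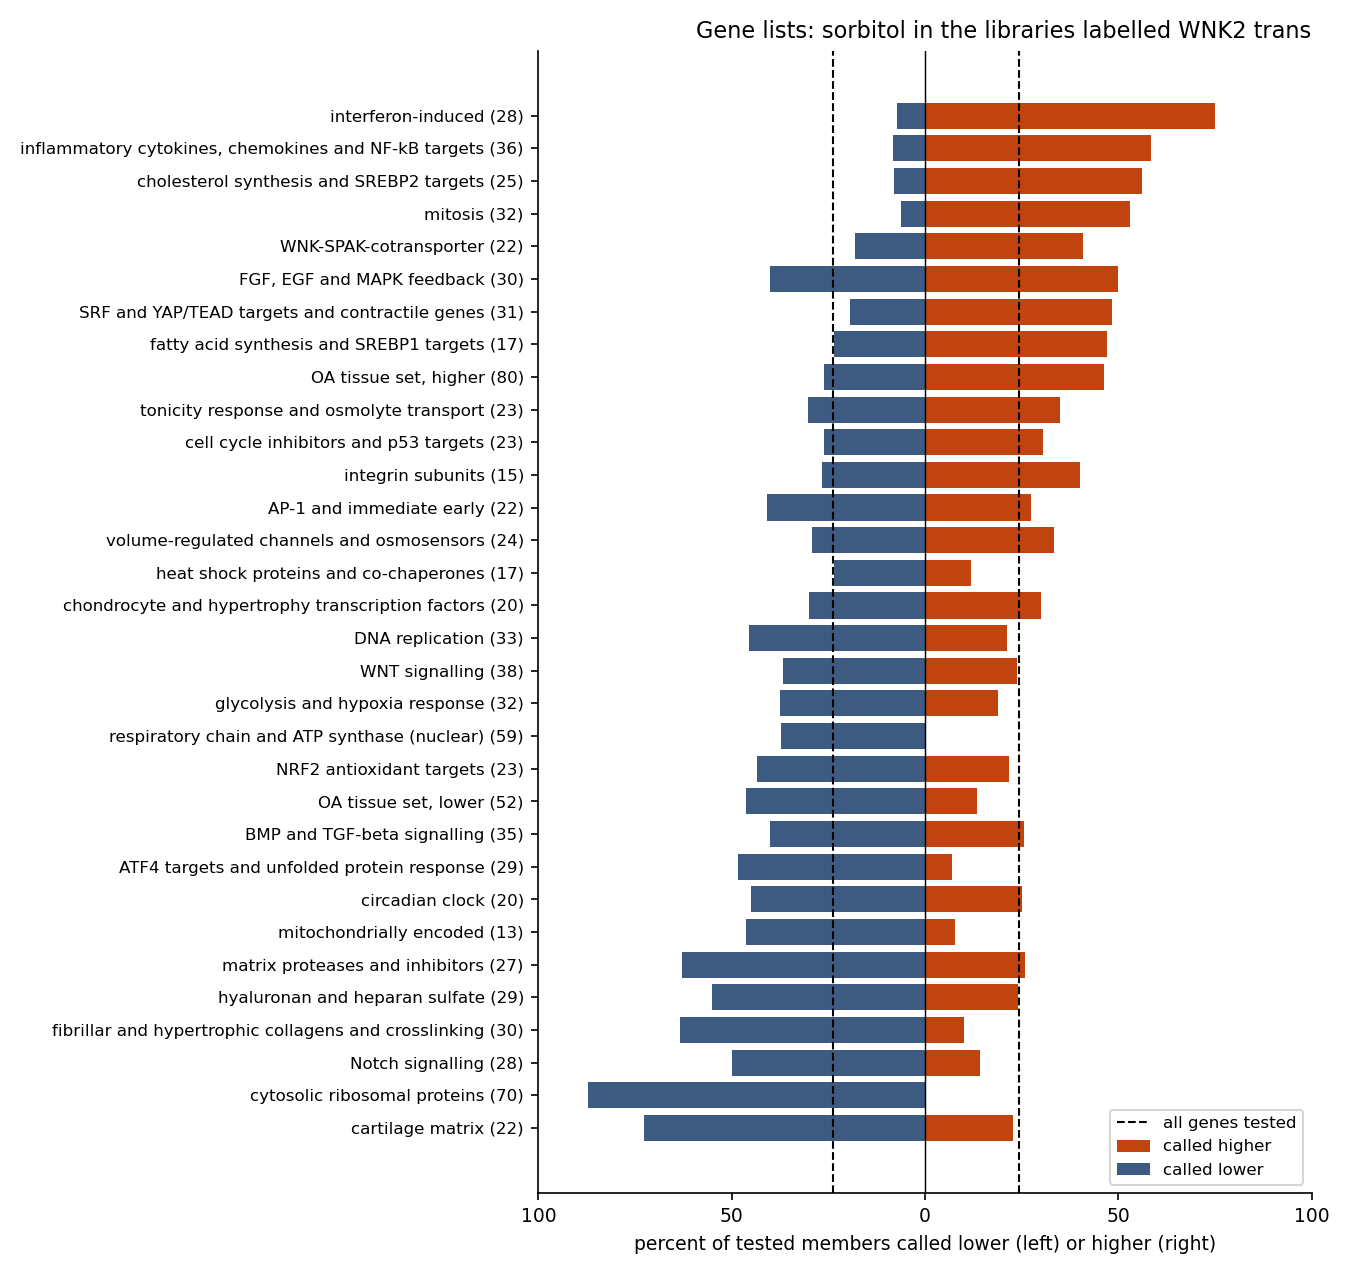
Percent of tested members called higher (right) or lower (left) with sorbitol in the libraries labelled WNK2 trans, for each gene list (number tested in brackets), ordered by median log2 fold change; dashed lines mark 24.3% and 23.7%, the shares over all genes tested. The interferon and inflammatory lists lie farthest to the right and the cytosolic ribosomal proteins farthest to the left.

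The sorbitol responses of the 3 backgrounds were compared over separate libraries. Of the 7972 genes called in WNK2 trans, 1425 moved the same way in WT cells, which was 17.9% of the WNK2 trans calls and 35.6% of the 4008 WT calls, and 804 moved the opposite way. With WNK2- cells 1759 were shared in direction, 22.1% of the WNK2 trans calls and 71.1% of the 2473 WNK2- calls, and 173 were opposite. Across the 16600 genes, Pearson's r of the log2 fold changes was 0.27 with WT and 0.56 with WNK2-, and Spearman's rho 0.14 and 0.49. These are a description over genes that are not independent and that share base composition. In all 3 backgrounds 395 genes rose (2.38%) and 204 fell (1.23%).

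Among the genes that rose in all 3 were AKR1B1, PRRX1 (3.86 in WNK2 trans, 2.45 in WT and 2.78 in WNK2-), ITGA2 (1.36, 1.43 and 1.84) and IL1B (3.76, 0.76 and 1.86). RELN, a secreted glycoprotein named after its values were seen, rose by 3.27, 1.5 and 1.57, and RANBP3L by 2.61, 3.48 and 2.12. Among those that fell in all 3, also named afterwards, SKP2, which targets cell cycle inhibitors for degradation, had −0.80, −0.81 and −0.83, and the matrix protein EFEMP1 −1.80, −0.77 and −1.20. SKP2 had nearly the same value in every background, whereas most of the others moved most in WNK2 trans.

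**Figure D4:**
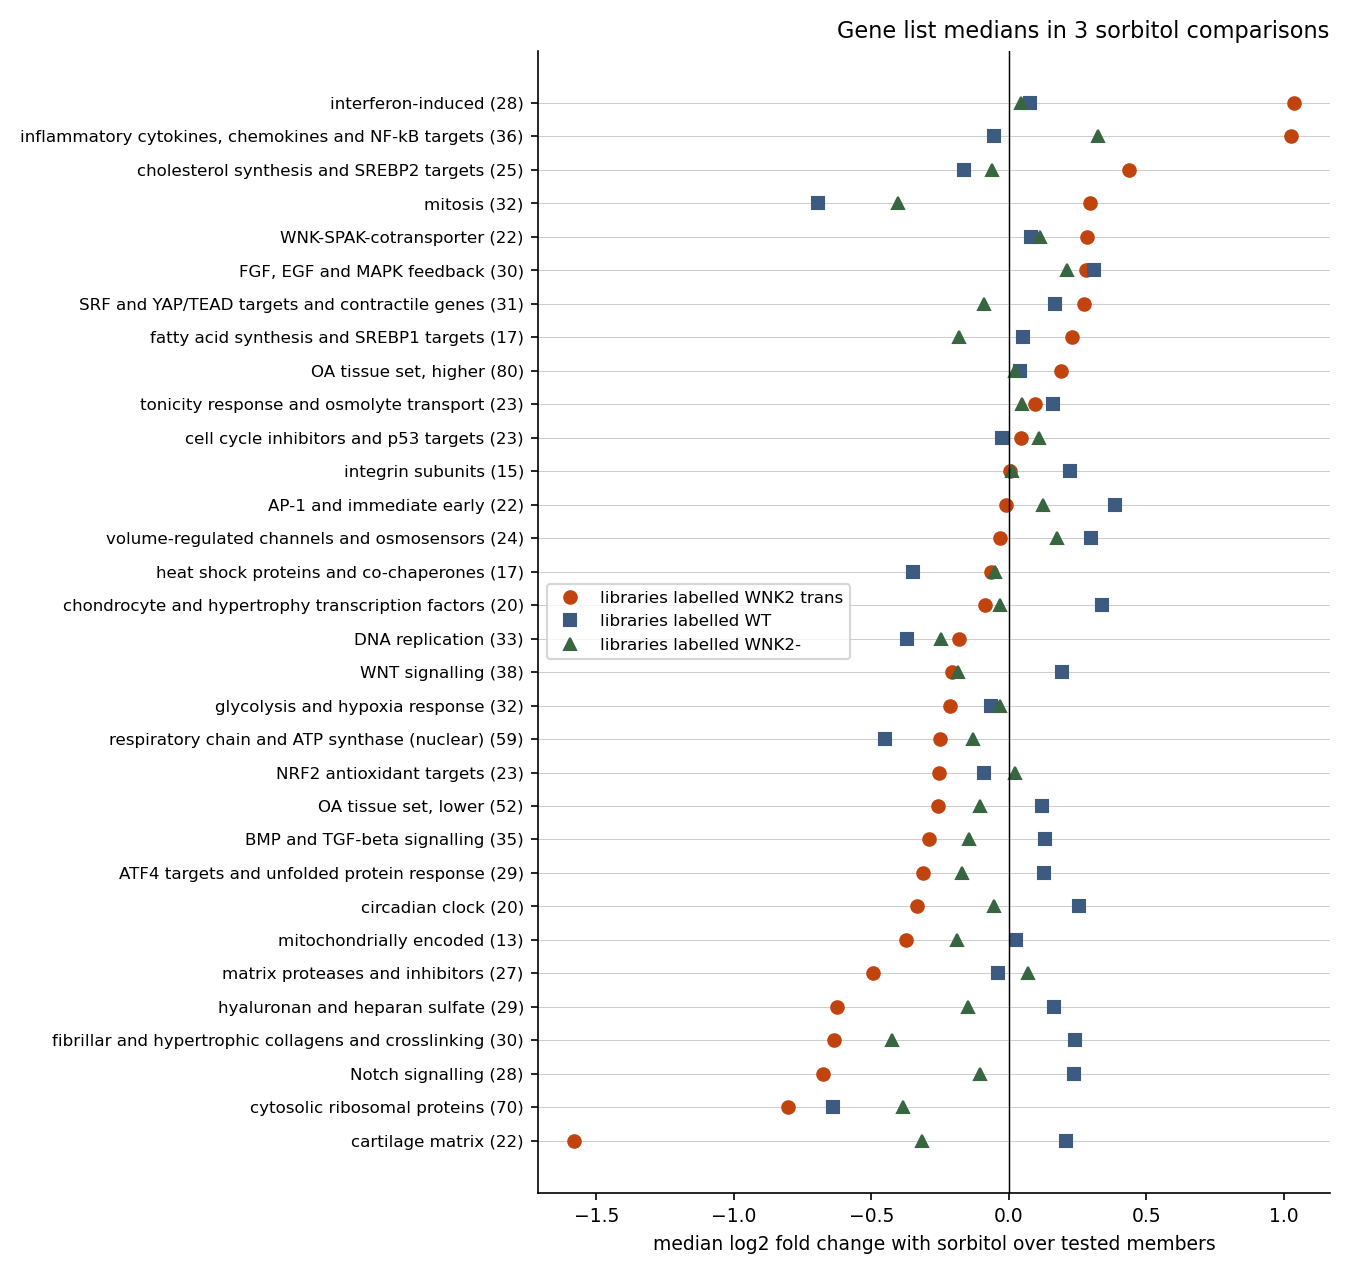
Median log2 fold change with sorbitol over the tested members of each gene list (number tested in brackets) in the libraries labelled WNK2 trans (circles), WT (squares) and WNK2- (triangles). The inflammatory and interferon lists lie near 1 in WNK2 trans and the cartilage matrix list at −1.58, while the WT medians of the Notch, collagen and cartilage matrix lists lie above 0.

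Base composition moved with these changes. Over 13068 protein-coding genes, Spearman's rho of the sorbitol log2 fold change with transcript GC content was −0.31 in WNK2 trans, 0.27 in WT and −0.14 in WNK2- cells, and that of WNK2 trans Ctr against WT Ctr was 0.33. In WNK2 trans the median log2 fold change was 0.09 in the lowest 10% of genes by GC content and −0.54 in the highest 10%. The part of this trend in each result was tested only by a correction for GC content and length. The 12 largest falls had a median GC content of 63.0%, and with the correction they stood at −3.76 to −1.95 and the 12 largest rises at 3.51 to 4.85, all 24 still called. Other named genes that stayed called but moved by over 1.5 times included WNK4 (1.09), which was larger with the correction. Those smaller in size with it included SCARF2 (−0.54), FZD9 (−0.76), OXSR1 (0.19), MCM2 (−0.29), SLC6A9 (−0.52), PER1 (−0.60), ANGPTL4 (−0.70), HSPB1 (−0.93), ITGB4 (−0.998), BARX1 (−1.35) and NRARP (−1.57). With the correction the cartilage matrix median was −1.49 (15 falls), the inflammatory median 0.90 (25 rises), the interferon median 1.09 (21 rises) and the mitosis median 0.18 (17 rises and 6 falls). The median of the matrix proteases was −0.30 (14 falls) and that of the replication genes −0.05 (11 rises).

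**Figure D5:**
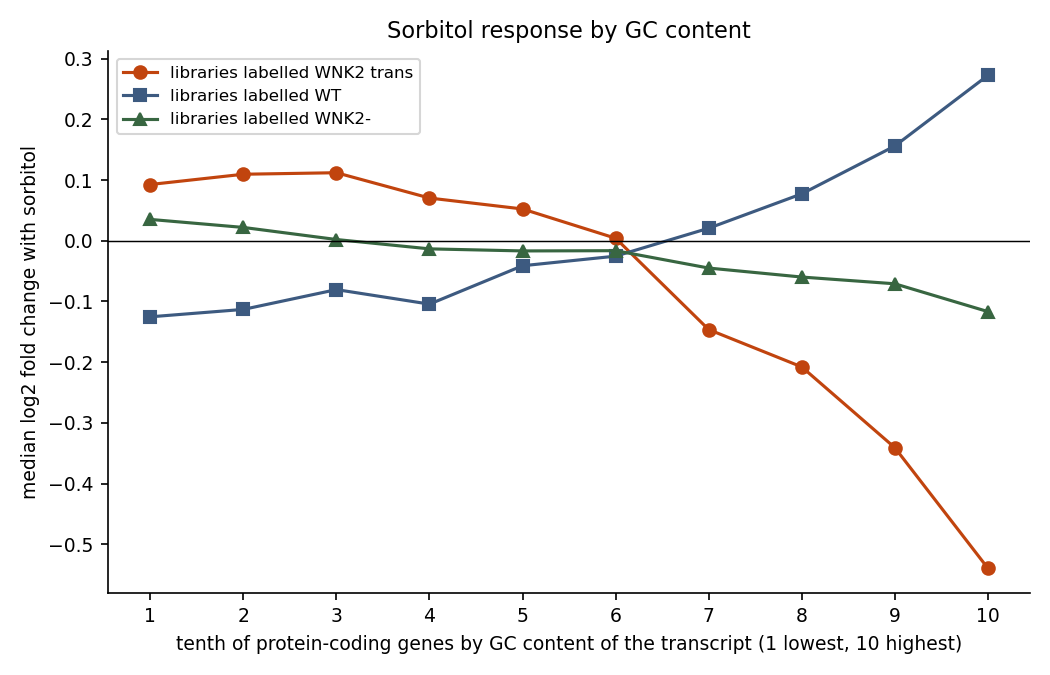
Median log2 fold change with sorbitol (y axis) by bin of transcript GC content over 13068 protein-coding genes (x axis, 10 bins of equal size, 1 lowest) in WNK2 trans (circles), WT (squares) and WNK2- (triangles). The WNK2 trans line falls to −0.54 in the highest bin, where the WT line is at 0.27.

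Markers of other cell types were summed as shares of counts. Summed markers took 0.000591 to 0.0008391% of counts for epithelial cells in the 8 libraries. Leukocyte markers took 0.001579 to 0.002325% without and 0.001011 to 0.001355% with sorbitol (of 4 tested, 2 rose and 1 fell). Muscle markers took 0.0003558 to 0.0004987% without and 0.0005556 to 0.000782% with sorbitol. CD68, ADIPOQ, FABP4, MYOD1 and SOX10 were listed at 0 in every library, and no level is drawn from them. Endothelial markers took 0.01173 to 0.0172% of control counts and 0.01438 to 0.02057% with sorbitol. Of 9 endothelial markers tested, 5 rose and 3 fell, with the junction protein CDH5 and the receptor TIE1, named after their values were seen, at 5.46 and 5.01. Mesenchymal markers, mostly COL1A1, went from 0.7337 to 0.818% of counts to 0.2604 to 0.3439% (of 10 tested, 3 rose and 5 fell). Chondrocyte markers, mostly HAPLN1, went from 0.006393 to 0.008499% to 0.01152 to 0.017%. Their sum follows HAPLN1, since of 7 tested 2 rose and 5 fell, COL2A1, ACAN and COMP among the falls. Ribosomal protein genes took 3.971 to 6.467% of control counts and, with sorbitol, 2.659 to 3.799%, the last in replicate 1. Neural markers took 0.00133 to 0.001692% without and 0.003213 to 0.00381% with sorbitol (of 4 tested, 2 rose and 2 fell). Among them MBP had 95.9 to 128 normalized counts without and 446 to 558 with sorbitol. Adipocyte markers took 0.01823 to 0.02139% and 0.01516 to 0.0205% (3 of 4 tested fell). Histone genes, whose messages mostly lack a poly(A) tail, took 0.0251 to 0.02858% and 0.0382 to 0.0445%. The part of cell composition or RNA quality in the results was not tested.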

How the data were processed

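Per the labels, the authors prepared poly(A) libraries (NEBNext Ultra), and the submitters' processing notes name HISAT2 2.2.1, HTSeq 2.0.2, DESeq2 1.38.3 and GRCh38; the study's methods name other versions of HTSeq and DESeq2. The annotation release and strand setting are not given in the sources used here, so overlapping and antisense genes are uncertain. The deposited values were raw counts per gene for 62703 identifiers, 62625 of them with a symbol and 58279 with a position in GENCODE 29. No row named anything but a gene.

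Genes passing filterByExpr (minimum count 10, minimum total 15) numbered 16600. Counts were fitted with edgeR 4.0.16 in R 4.3.3: TMM factors, 6 group means together, quasi-likelihood tests and Benjamini-Hochberg adjustment over all genes tested, threshold 0.05. A standard error is the size of the fold change over the square root of F. Positions and GC content came from GENCODE 29, promoters from RefSeq (GRCh38.p14), 250 bases before to 50 after the start. Promoters were searched for 10 motifs, of which only the ISRE core, TEAD and E2F motifs are reported. GC content and length were known for 96.3% of tested genes. The alternatives were DESeq2 1.42.0, other scalings and filters, thinning, a GC and length correction, a replicate block, a fit of the 8 libraries alone and leaving out libraries. The code was tested on simulated counts.

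The gene lists, their members and the tests were chosen with earlier results of these data known, whereas the 8 libraries were chosen by their labels. Genes were named by rule: WNK2; the 12 largest rises and 12 largest falls called without overlap with mean log2 CPM from 3 upwards; the largest changes, up to 4, among called members of each of 32 lists with mean log2 CPM from 1 upwards; and a fixed set of pathway genes whatever their result, 168 in all. Exceptions are marked where they occur, and a few genes are not reported here.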

Additional observations from a re-analysis of the deposited data

Results flagged for a closer look

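In 362 groups of 4 values (named genes and library measures), 20 had 1 library far from the other 3 by Dixon's gap test, where chance gives about 5% of groups. The count of 20 is near that share. All values of genes are normalized counts. WNK2 trans Sor replicate 1 stood above its group for the ribosomal protein genes RPL41 (9576, others 2815 to 3695) and RPS25 (3866, others 1457 to 1774), for the respiratory chain genes COX6B1 (1930.1, others 607 to 826) and UQCRH (1927, others 900.7 to 999.7) and for SPRY1 (394.7, others 329 to 338), and below it for RUNX2 (815.9, others 1092 to 1146). In the same group, replicate 2 was low for VEGFA (5491, others 6565 to 6776) and high for the summed adipocyte markers (0.0205% of counts, others 0.01516 to 0.01586%), and replicate 4 was low for POSTN (1976, others 2454 to 2544).

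WNK2 trans Ctr replicate 3 stood above its group for CHRD (195.7, others 120.4 to 133.3), COMP (66.3, others 52.4 to 53.5) and CILP2 (910.8, others 731 to 749.9), and below it for FGF5 (16.9, others 38.6 to 41.8), ADAMTS5 (97.8, others 208 to 225) and NRG1 (155.2, others 196 to 201). Replicate 1 of that group was high for ADAMTS6 (256.2, others 173.5 to 182.7) and ACAN (222.6, others 127 to 142) and low for FGFR3 (1135, others 1333 to 1365). Replicate 4 was low for AMTN (8.04, others 22.4 to 24.7), and replicate 2 had 15057 genes with at least 10 counts (others 14347 to 14427).

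The sorbitol response differed between the libraries labelled WNK2 trans and WT for 26 of the 36 fixed genes tested, by the edgeR interaction term with its adjusted p, beside 18.1% of all genes higher and 17.4% lower. The genes were chosen with earlier results known, so their count is a description. WNK2 led with 6.65 (1.04e-14), followed upwards by CXCL8 4.99 (5.77e-16), MMP3 4.68 (2.31e-06), GREM1 3.33 (7.73e-14), IL1B 3.00 (4.67e-10), WNT5B 2.95 (3.18e-11), MMP13 1.92 (3.41e-07), STK39 1.82 (3.35e-10), IL6 1.80 (3.13e-08) and HMGCS1 1.23 (1.24e-05). Smaller upward differences were those of AKR1B1 0.82 (0.000223), RUNX2 0.69 (0.00135), OXSR1 0.53 (0.00189), HSPA5 0.44 (0.00149) and SCD 0.38 (0.0113). Downwards, SPRY1 had −3.60 (1.09e-13), ACAN −3.27 (7.48e-06), COL2A1 −2.39 (2.78e-06), COMP −2.37 (0.00239), PER1 −1.48 (3.28e-05), JAG1 −1.43 (1.59e-10), TRPV4 −1.22 (0.000304), WNT5A −1.12 (5.1e-07), ADAMTS5 −0.95 (0.0201), SLC6A6 −0.51 (0.00604) and MCM2 −0.43 (0.00917).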

How the results depend on the processing

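The counts of genes called with sorbitol stayed within 1.5 times those reported under every alternative run. Against 4034 higher and 3938 lower, DESeq2 gave 4329 and 3934, upper-quartile factors 4610 and 3338 (58.0% of calls higher, against 50.6%), a fit of the 8 libraries alone 2820 and 2812 of 14942 tested, the GC and length correction 4546 and 4614, and leaving out 1 library 3627 to 4287 and 3410 to 4478. Without WNK2 trans Ctr replicate 3 and WNK2 trans Sor replicate 1 together, an alternative chosen after seeing the data, they were 4107 and 3940. For the difference from the WNK2- response, leaving out 1 library gave 1231 to 2407 genes called lower, the highest without WNK2 trans Sor replicate 1; the cause was not tested.

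Of 168 named genes, 153 kept direction and call under every alternative. Over all 3018 values, 32 lost and 18 gained the call and 10 reversed. With the GC and length correction HSPA5 was at −0.0954, LRRC8A at 0.1039 and MT-ATP8 at −0.009. Without 1 library, HSPA5 ran from −0.0188 to 0.1033 (−0.0033, −0.0188 and −0.0026 without WNK2 trans Ctr replicate 1 or 4 or WNK2 trans Sor replicate 1) and NR1D1 ran from −0.0763 to 0.1254, with −0.0078, −0.0452, −0.0763 and −0.039 without WNK2 trans Ctr replicate 1 or 4 or WNK2 trans Sor replicate 1 or 3. Calls gained under at least 1 alternative included those of NFAT5, CDKN1A, NFKBIA, NR1D1 and LRRC8A.

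Same-numbered libraries did not deviate together (r of −0.27, 0.10, −0.11 and 0.0045 across genes), so the numbers were not read as pairs. With a replicate block, 3910 genes were called higher and 3980 lower, the differences from WT 2834 and 2955 and those from WNK2- 1774 and 1566, and MT-ATP8 was the only named gene to lose its call. Depth limits COMP, MMP3 and other genes under about 10 counts in a group, and genes listed at 0 in all libraries cannot be read.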
